A study of Mus musculus with 6 samples.

Results

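The cytochrome P450 genes of the Cyp1 family, the Cyp3a subfamily and the Cyp2 family without its Cyp2c branch were examined in mouse liver. Members were all genes whose symbol starts with Cyp1a, Cyp1b or Cyp3a, or with Cyp2 and any letter except c, on probe sets annotated to 1 gene symbol, without names that end in -ps. This gave 41 of the 18820 genes tested. The arrays came from 6 C57BL6 mice aged 2 months: 4 with the genotype Pcyt2+/- (replicates 1 to 4, called knock-out in the titles) and 2 wild type (replicates 3 and 4). Pcyt2 encodes the enzyme that makes CDP-ethanolamine for phosphatidylethanolamine, and the question put to these livers was how gene expression differs when it is deficient. The sources used here state neither how the allele was made nor whether the mice were male or female, fed or fasted.

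These P450s are haem enzymes of the endoplasmic reticulum that oxidise drugs, steroids, fatty acids and other lipids, with electrons passed on by P450 reductase and cytochrome b5. Several are switched on by receptors that sense foreign compounds: AHR acts on the Cyp1 genes, CAR (Nr1i3) above all on Cyp2b10, and PXR (Nr1i2) above all on Cyp3a11. Others, such as Cyp2e1, Cyp2f2 and most Cyp2d genes, are made constantly by hepatocytes under factors such as HNF4A. Cyp2e1, Cyp1a2 and Cyp2a5 are known from hepatocytes around the central vein and Cyp2f2 from those around the portal vein.

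Of the 41 members, 13 had a mean above 5 on the deposited log2 scale, above the band in which most of the array lay, and 28 had a mean of 5 or below. Only 791 of all 18820 genes had a mean above 5. RefSeq (GRCm38.p6) listed all 41 symbols, 40 as protein coding and Cyp2d13 as a transcribed pseudogene. Cyp1b1 was the 1 member with several probe sets. Another 4 probe sets carried several P450 symbols and could not be assigned to a gene, so Cyp2a4, Cyp3a41a, Cyp3a41b and Cyp3a59 were not analysed here.

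The bases ahead of the start site are shown for 6 members, to set the genes with the largest differences in either direction beside the main PXR target Cyp3a11 and the constitutive Cyp2e1. Each line gives the last 100 bases before the start, 5′ to 3′ on the gene's strand, from RefSeq GRCm38.p6, with the letters TATAAA of a TATA box in capitals.
Cyp2a5: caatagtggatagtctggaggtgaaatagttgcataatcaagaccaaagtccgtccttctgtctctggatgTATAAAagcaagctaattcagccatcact
Cyp3a25: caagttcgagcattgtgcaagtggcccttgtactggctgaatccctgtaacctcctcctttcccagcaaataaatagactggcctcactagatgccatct
Cyp3a11: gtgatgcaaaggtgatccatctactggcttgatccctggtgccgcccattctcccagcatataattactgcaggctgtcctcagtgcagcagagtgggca
Cyp1a2: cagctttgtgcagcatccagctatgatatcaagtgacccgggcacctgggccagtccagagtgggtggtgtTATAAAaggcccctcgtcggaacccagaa
Cyp2e1: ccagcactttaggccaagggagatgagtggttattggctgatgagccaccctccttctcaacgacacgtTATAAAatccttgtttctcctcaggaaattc
Cyp2f2: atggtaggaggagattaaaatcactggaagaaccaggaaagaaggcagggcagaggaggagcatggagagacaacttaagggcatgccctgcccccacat
Cyp2a5 lies at chr7:26835239-26835338 on the plus strand, Cyp2e1 at chr7:140763719-140763818 (plus) and Cyp2f2 at chr7:27119855-27119954 (plus). Cyp3a25 lies at chr5:146009619-146009718 on the minus strand, Cyp3a11 at chr5:145879855-145879954 (minus) and Cyp1a2 at chr9:57683656-57683755 (minus). TATAAA began 29 bases before the start in Cyp2a5 and Cyp1a2 and 31 bases before it in Cyp2e1. It was not in these 100 bases of Cyp3a25, Cyp3a11 or Cyp2f2.

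A RefSeq promoter was listed for 35 of the 41 members. Over the 250 bases before the start and on either strand, TATAAA stood in 9 of 11 members with a mean above 5 and in 6 of 24 dimmer ones, against 3504 of 27025 genes with a promoter. The nuclear receptor hexamer AGGTCA was in 11 of the 35, among them Cyp3a11, Cyp3a25 and Cyp2f2, against 13.8% of all. The AHR core GCGTG was in 8 of the 35, among them Cyp1a1 and Cyp1b1, and in 0 of the 11 with a mean above 5, against 28.2% of all. CCAAT was in 12 of the 35, against 34.5% of all. These are matches of letters in a short window and say nothing of binding.

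The deposited values covered 28996 probe sets on each of the 6 arrays, with array medians from 4.397 to 4.403 and correlations between arrays of 0.9911 to 0.9977. For arrays the number of mice limits the precision. Hepatocyte markers were high in all 6 livers (list mean 11.07 to 11.20), while the Kupffer, endothelial, cholangiocyte and lung or kidney lists had means of 4.27 to 4.57 and stellate markers 4.64 to 4.72, with no group apart from the other in those lists. Pcyt2 itself read 4.638, 4.657, 4.669 and 4.604 in Pcyt2+/- replicates 1 to 4 and 4.89 and 4.80 in wild type replicates 3 and 4. The groups did not overlap. Every difference here is the Pcyt2+/- mean less the wild type mean, in log2 units, and for Pcyt2 it was -0.20 (SE 0.028), short of the threshold in limma (adjusted p = 0.264). It was -0.97 (SE 0.148, limma adjusted p = 0.0671) once each array's median signal had been subtracted on the linear scale. Near the low band this subtraction enlarges a difference and its SE alike. Whether -0.97 is nearer the true change was not tested.

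No P450 member passed the test between Pcyt2+/- and wild type liver. Limma called 0 of the 41 at an adjusted p under 0.05, with a background of 0% over all genes, and the smallest adjusted p among members was 0.668. At an unadjusted p under 0.05 there were 3 members, Cyp2a5 and Cyp3a13 lower and Cyp2f2 higher in Pcyt2+/-, or 7.32% of members against 5.3% of all genes. The groups did not overlap for 3 members, Cyp2a5, Cyp3a25 and the dim Cyp2d12, or 7.32% against 12.8% of all genes. The 2 lower ones stand beside 7.17% of all genes. Cyp2d12 is named because it is the third, after its values were seen. A lower mean in Pcyt2+/- was seen in 22 of 41 members, and the median difference was -0.0020 beside -0.00073 over all genes. Among the 13 brighter members 9 were lower with a median of -0.015, beside 62.5% of the 791 genes above 5 and -0.020. Of these 13, 1 lower and 1 higher member had an unadjusted p under 0.05, beside 20.2% of genes above 5 in either direction, 14.7% lower and 5.56% higher. The 2 brighter members without overlap, both lower, stand beside 20.9% of genes above 5 in either direction, 15.3% lower and 5.56% higher. Whether a liver held less RNA of a gene per cell or fewer cells that make it cannot be told apart in whole tissue.

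**Figure D1:**
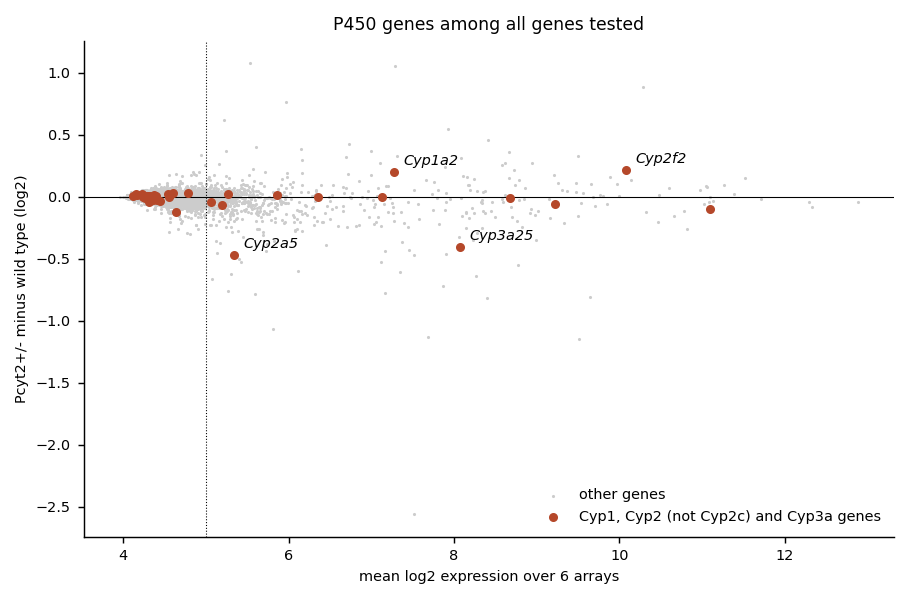
Difference between Pcyt2+/- and wild type liver (log2) against mean log2 expression over 6 arrays, for the 41 P450 genes (red) and all other genes tested (grey); the dotted line marks a mean of 5. Most P450 genes sit at the low end of the array near 0, with Cyp2a5 (-0.47) and Cyp3a25 (-0.41) below and Cyp2f2 (0.21) and Cyp1a2 (0.20) above.

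In the Cyp2a group, whose Cyp2a5 oxidises coumarin and nicotine and is known to rise in mouse liver on fasting, Cyp2a5 had the largest difference of all members. It read 5.28, 5.06, 5.30 and 5.08 in Pcyt2+/- replicates 1 to 4 and 5.86 and 5.45 in wild type replicates 3 and 4. Every Pcyt2+/- array lay below both wild type arrays. The means were 5.18 ± 0.126 (SD, n = 4) and 5.65 ± 0.287 (SD, n = 2), which leaves -0.47 (95% interval -0.76 to -0.19), wild type being 1.39-fold the higher. Limma over all genes did not call it (adjusted p = 0.668), and the two-sided exact permutation test gave 0.0667, the smallest p that 15 splits of the arrays can give. The difference was -0.27 without wild type replicate 3, and -0.94 (adjusted p = 0.326 by limma) after the same subtraction of the low band.

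A probe set annotated to both Cyp2a5 and Cyp2a4, which cannot be assigned to either gene, read 4.94, 4.81, 4.95 and 4.70 in Pcyt2+/- and 5.22 and 4.99 in wild type. Its groups did not overlap either (difference -0.25). Cyp2a12, a constitutive steroid hydroxylase of the same gene cluster, read 6.325, 6.332, 6.396 and 6.341 in Pcyt2+/- and 6.21 and 6.50 in wild type. The Pcyt2+/- arrays fell between both wild type arrays, and the difference of -0.0042 turned to 0.14 without wild type replicate 4 and to -0.15 without wild type replicate 3. Cyp2a22 stayed in the low band, between 4.12 and 4.17 on all arrays.

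Among the Cyp3a genes, which hydroxylate steroids, bile acids and many drugs, the main PXR target and its neighbour Cyp3a25 gave different values. Cyp3a11 read 8.54, 8.68, 8.96 and 8.52 in Pcyt2+/- and 8.74 and 8.64 in wild type. Both wild type values lay inside the Pcyt2+/- range, with means of 8.67 ± 0.201 (SD, n = 4) and 8.69 ± 0.070 (SD, n = 2). The difference of -0.015 had a 95% interval of -0.30 to 0.27, and its sign turned with some of the arrays left out (-0.11 to 0.035).

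Cyp3a25 read 8.10, 8.01, 8.10 and 7.54 in Pcyt2+/- and 8.54 and 8.15 in wild type. The groups did not overlap, although wild type replicate 4 lay only just above the Pcyt2+/- arrays and Pcyt2+/- replicate 4 stood low. The means were 7.94 ± 0.265 (SD, n = 4) and 8.34 ± 0.275 (SD, n = 2), which leaves -0.41 (95% interval -0.83 to 0.017; limma adjusted p = 0.936, two-sided exact permutation p = 0.133). It was -0.21 without wild type replicate 3. A probe set annotated to Cyp3a25, Cyp3a57 and Cyp3a59 together read 5.04, 4.90, 4.98 and 4.82 in Pcyt2+/- and 5.17 and 5.15 in wild type, again without overlap (difference -0.22). For the 2 probe sets shared by Cyp3a11 and 3 further Cyp3a symbols the groups overlapped, with differences of -0.024 and -0.017.

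The other Cyp3a genes were in the low band. Cyp3a13, a Cyp3a form also known from intestine, read 4.66, 4.53, 4.62 and 4.56 in Pcyt2+/- and 4.65 and 4.79 in wild type. The groups overlapped, and the difference of -0.12 (SE 0.047) did not pass limma (adjusted p = 0.913). It was -0.056 without wild type replicate 4. With the low band subtracted it was -0.80, again short of the limma threshold. Its mean of 4.63 lay just above the 4.6 limit of that setting, where subtraction enlarges differences and their spread. Cyp3a16 and Cyp3a44, forms known from female or young liver, had differences of 0.012 and -0.034, and Cyp3a57 one of -0.042. Of the 6 Cyp3a genes 5 had a lower mean, with a median difference of -0.038. With each gene centred within its group, the median over these genes varied between single arrays with an SD of 0.036. That SD is not an error of the median difference.

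**Figure D2:**
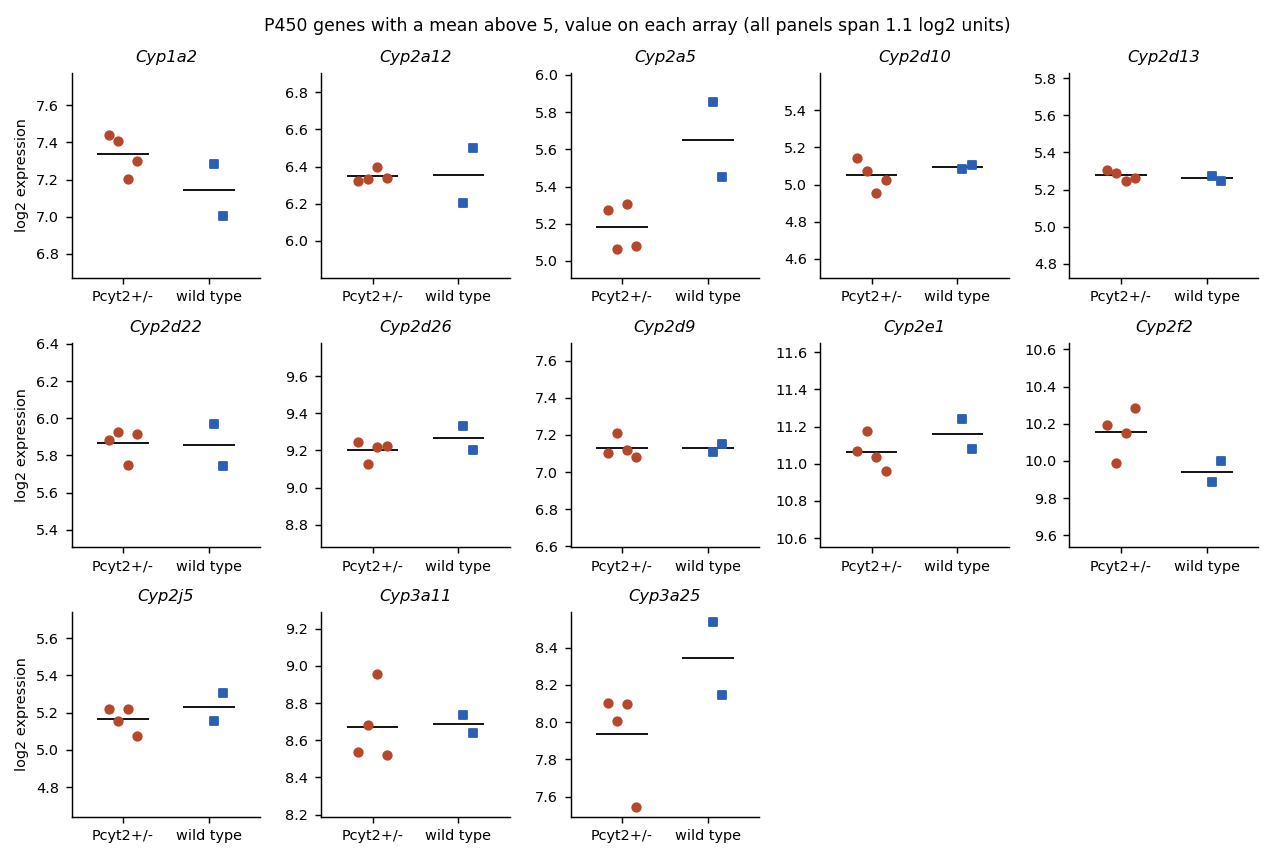
Log2 expression of the 13 P450 genes with a mean above 5, 1 point per array, Pcyt2+/- (red circles, n = 4) and wild type (blue squares, n = 2), with the group mean as a line; every panel spans the same number of log2 units. Cyp2a5 and Cyp3a25 show no overlap between groups, and the other 11 genes overlap.

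The periportal Cyp2f2, which activates naphthalene and styrene, had the largest difference in the other direction. It read 10.19, 9.99, 10.15 and 10.29 in Pcyt2+/- and 9.88 and 10.00 in wild type. Of the 4 Pcyt2+/- arrays 3 lay above both wild type arrays, and replicate 2 lay between them. The means were 10.15 ± 0.125 (SD, n = 4) and 9.94 ± 0.081 (SD, n = 2), which leaves 0.21 (95% interval 0.030 to 0.40; limma adjusted p = 0.886, two-sided exact permutation p = 0.20). It ran from 0.16 to 0.27 with each array left out.

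Cyp2e1, which oxidises ethanol, acetone and acetaminophen around the central vein, read 11.07, 11.18, 11.04 and 10.96 in Pcyt2+/- and 11.24 and 11.08 in wild type. The groups overlapped, and the difference was -0.098 with a 95% interval of -0.25 to 0.054 (limma adjusted p = 0.956). It was -0.018 without wild type replicate 3 and -0.18 without wild type replicate 4. Among markers of the periportal zone, 4 of 4 measured genes had lower means in Pcyt2+/- (list mean 6.53 to 6.71 against 6.91 to 7.07), the other way from Cyp2f2. The largest periportal differences were those of Pck1 (-0.72) and Cps1 (-0.56). Hal, whose groups overlapped, differed by -0.14. Hsd17b13, in the low band, also differed by -0.14, without overlap. It had the smallest limma adjusted p of the measured periportal markers (0.219). The 5 measured pericentral markers were also lower (5.14 to 5.33 against 5.31 to 5.34). A lower mean was seen in 51.9% of all genes and in 62.5% of those above 5. None of these marker genes passed limma over all genes, and the part of zonation in the P450 values was not tested.

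Of the AHR targets, Cyp1a2, a hepatocyte enzyme that oxidises caffeine and aromatic amines, was well above the low band. It read 7.44, 7.41, 7.20 and 7.30 in Pcyt2+/- and 7.282 and 7.002 in wild type. The groups overlapped through Pcyt2+/- replicate 3 and wild type replicate 3. The means were 7.34 ± 0.108 (SD, n = 4) and 7.14 ± 0.198 (SD, n = 2), and the difference of 0.20 (95% interval -0.020 to 0.41) did not pass limma (adjusted p = 0.936). It was 0.056 without wild type replicate 4 and 0.34 without wild type replicate 3. Cyp1a1 and Cyp1b1, which AHR ligands raise from a low baseline, stayed between 4.30 and 4.42 on all 6 arrays, with differences of -0.0037 and -0.0090.

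The 5 Cyp2b genes, the classical CAR targets, were all in the low band, between 4.10 and 4.57 on all arrays. Cyp2b10, the gene most used as a readout of CAR, read 4.373, 4.405, 4.359 and 4.374 in Pcyt2+/- and 4.357 and 4.402 in wild type. Its difference of -0.0020 had a 95% interval of -0.044 to 0.040. Cyp2b9 and Cyp2b13, known as female forms in mouse liver, differed by 0.00073 and 0.0083. Across the 5 genes 2 were lower and 3 higher, and all 5 intervals lay within 0.1 of 0, on a part of the scale where differences are compressed.

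The Cyp2d genes, relatives of the human debrisoquine hydroxylase, had the most members above the low band, 5 of 9. Cyp2d26 read 9.25, 9.13, 9.22 and 9.22 in Pcyt2+/- and 9.33 and 9.20 in wild type, a difference of -0.062 (95% interval -0.17 to 0.042). Cyp2d9, a testosterone hydroxylase known from male liver, read 7.10, 7.21, 7.12 and 7.08 in Pcyt2+/- and 7.11 and 7.15 in wild type, a difference of -0.0012 (95% interval -0.086 to 0.084). In both genes the groups overlapped, and for Cyp2d9 the interval lay within 0.1 of 0. Cyp2d9 turned to 0.052 under quantile normalization, again short of the test.

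Cyp2d22, a further hepatic Cyp2d form, read 5.88, 5.93, 5.75 and 5.92 in Pcyt2+/- and 5.97 and 5.75 in wild type. The wild type arrays enclosed the Pcyt2+/- range, and the difference of 0.012 turned to -0.10 without wild type replicate 4. Cyp2d10 read 5.14, 5.08, 4.96 and 5.02 in Pcyt2+/- and 5.08 and 5.10 in wild type (difference -0.044), and the pseudogene Cyp2d13 ran from 5.25 to 5.31 and from 5.25 to 5.27 (0.018). The dim Cyp2d11, Cyp2d12, Cyp2d34 and Cyp2d40 differed by -0.011 to 0.028. Cyp2d12 was the 1 higher member without overlap, by 0.017 (1 of 41, or 2.44%, against 5.67% of all genes). Over the 9 genes 4 were lower and 5 higher, with a median of 0.011. Closely related Cyp2d genes can share probe sequence, and cross-hybridisation was not tested.

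**Figure D3:**
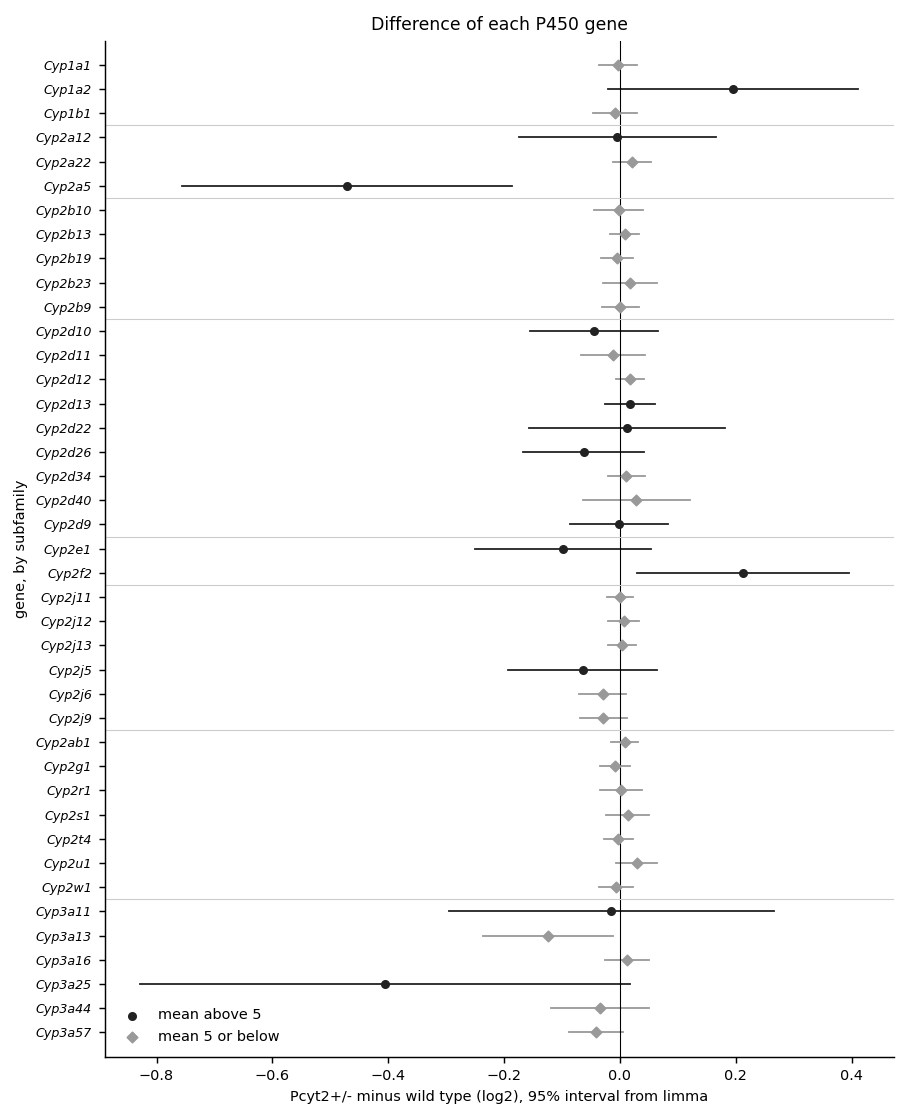
Difference between Pcyt2+/- and wild type (log2) for each of the 41 P450 genes with its 95% interval from limma, grouped by subfamily; black circles have a mean above 5 and grey diamonds 5 or below. The intervals of 38 genes include 0; those of Cyp2a5, Cyp2f2 and Cyp3a13 do not, before any adjustment for the number of genes tested.

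Among the Cyp2j genes, epoxygenases of arachidonic acid, only Cyp2j5 had a mean above 5. It read 5.22, 5.16, 5.22 and 5.07 in Pcyt2+/- and 5.16 and 5.31 in wild type, a difference of -0.064 (95% interval -0.19 to 0.064) that turned to 0.011 without wild type replicate 4. The other 5 lay between 4.28 and 4.44 on all arrays, and Cyp2j6, one of them, differed by -0.030. The 7 remaining Cyp2 genes, Cyp2ab1, Cyp2g1, Cyp2r1, Cyp2s1, Cyp2t4, Cyp2u1 and Cyp2w1, lay between 4.23 and 4.62 on all arrays. Cyp2r1, the vitamin D 25-hydroxylase of the liver, differed by 0.0022, and Cyp2u1, a fatty acid hydroxylase, by 0.029, the highest of the 7.

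The spread between mice of one genotype was as large as most of these differences. In 9 of the 13 brighter members the gap between both wild type arrays was larger than the difference between the groups, and in 12 of 13 the range over the Pcyt2+/- arrays was. Cyp2a5 was the 1 exception to the latter. Cyp3a25 had the widest Pcyt2+/- range (0.56), followed by Cyp3a11 (0.43), while Cyp2a5 had the widest gap between the wild type arrays (0.41). Wild type replicate 3 read higher than replicate 4 in 8 of the 13. With each array left out in turn, 6 of the 13 kept their sign in all of these and the other alternatives: Cyp1a2, Cyp2a5, Cyp2d10, Cyp2e1, Cyp2f2 and Cyp3a25.

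**Figure D4:**
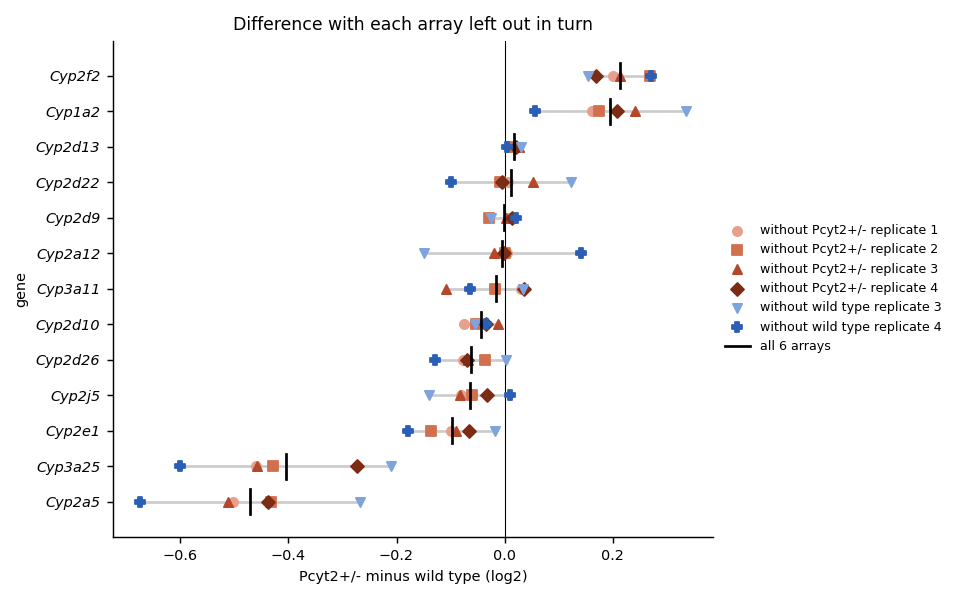
Difference between Pcyt2+/- and wild type (log2) for the 13 P450 genes with a mean above 5, with all 6 arrays (black bar) and with each array left out in turn (symbols). The values of Cyp2a5 stay between -0.67 and -0.27, and those of Cyp2f2 between 0.16 and 0.27; leaving out a wild type array gives the extremes for both genes.

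The receptors and factors that drive these genes were examined as a list of 19, of which 16 were measured. By limma 0 rose, 0 fell and 16 did not pass. Without adjustment, 2 were lower and 0 higher at p under 0.05, beside 3.44% and 1.86% of all genes. A lower mean was seen for 14 of 16 (median -0.025), beside 51.9% of all genes. Ahr differed by -0.0012, its partner Arnt by 0.015, the PXR gene Nr1i2 by -0.039 and the shared partner Rxra by -0.046. Each of these had a mean of 5 or below, as had 14 of the 16 measured, which limits what their small differences can show. Hnf4a read 7.49, 7.27, 7.33 and 7.36 in Pcyt2+/- and 7.32 and 7.90 in wild type. Its difference of -0.25 rested on wild type replicate 4, without which it was 0.038. The CAR gene Nr1i3 shared its probe set with another gene and was not analysed here.

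Of 17 genes for electron transfer and haem, 14 were measured, and 0 rose, 0 fell and 14 did not pass. Por, the gene of P450 reductase, was not among the 14. A lower mean was seen for 11 of 14 (median -0.013), beside 51.9% of all genes and 62.5% of those above 5. Of the 14, 7 had a mean above 5. Cyb5a, cytochrome b5, differed by -0.082, and Alas1, which starts haem synthesis, by -0.18 (0.024 without wild type replicate 4). Pgrmc1, a haem-binding partner of P450s in the endoplasmic reticulum, read 6.42, 6.41, 6.37 and 6.37 in Pcyt2+/- and 6.50 and 6.55 in wild type. The groups did not overlap, and limma gave a difference of -0.13 (SE 0.021) with an adjusted p of 0.321.

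Targets of CAR and PXR outside the P450s gave 0 that rose, 0 that fell and 18 that did not pass, of 21 in the list. Without adjustment 4 of the 18 were lower at p under 0.05 and 0 higher. Beside this stand 3.44% and 1.86% of all genes, and 14.7% and 5.56% of genes above 5. Of the 18, 6 had a mean above 5. The phase II and transport genes Ephx1 (epoxide hydrolase), Gstm1 (glutathione transferase), Ces2a (carboxylesterase) and Abcc2 (export pump) differed by -0.083, 0.092, 0.0071 and -0.091. Ces2a was in the low band. Abcc2, 1 of the 4 lower before adjustment, showed no overlap between groups (limma adjusted p = 0.901), while the groups overlapped for Ephx1 and Gstm1. Aldh1a7, an aldehyde dehydrogenase in the low band, differed by -0.071 without overlap (limma adjusted p = 0.646). Aldh1a1, a retinal dehydrogenase above the low band, had the largest difference of the list, -0.39 without overlap (limma adjusted p = 0.784), and is named after its values were seen. Of 10 AHR targets outside the P450s 5 were measured, all in the low band from 4.24 to 4.56, and 0 rose, 0 fell and 5 did not pass. Nqo1, the quinone reductase, differed by 0.0088.

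Many P450s of these families differ between the sexes in mouse liver, so lists of sex-biased genes were set beside them. Of 12 measured male-biased genes 0 rose, 0 fell and 12 did not pass, with list means of 6.59 to 6.97 in Pcyt2+/- and 6.53 to 7.06 in wild type. Hsd3b5, a male steroid dehydrogenase, differed by 0.18 (5.16 ± 0.085, SD, n = 4, against 4.98 ± 0.096, n = 2), and Elovl3, a fatty acid elongase, by -0.36 (0.088 without wild type replicate 4). Of 10 measured female-biased genes 0 passed; their list mean was 4.53 to 4.61 against 4.85 to 4.87, and the gap lay mostly in Cyp4a14, an omega-hydroxylase that also responds to PPARA, with a difference of -2.56 (limma adjusted p = 0.13). Cyp4a14 did pass limma under some of the alternatives described at the end. Xist and the Y-linked genes measured lay between 4.18 and 4.39 on all arrays, in the low band.

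Genes of the fasting response are set beside Cyp2a5 and Cyp3a25. Of 14 listed 12 were measured and 11 had a lower mean in Pcyt2+/-, with list means of 5.49 to 5.61 against 5.98 to 6.05 in wild type, while 0 rose, 0 fell and 12 did not pass limma over all genes. A lower mean was seen in 51.9% of all genes and in 62.5% of those above 5. Before adjustment 5 of the 12 had p under 0.05, all 5 lower, beside 3.44% of all genes and 14.7% of those above 5. Most of the gap between the list means lay in Cyp4a14 (-2.56), which is also in the female-biased list, Tat (tyrosine aminotransferase, -1.13) and Pck1 (the gluconeogenic PEP carboxykinase, -0.72), which is also a periportal marker. Cpt1a and G6pc, also above the low band, differed by -0.20 without overlap and by -0.43 with overlap. Pdk4, Fgf21 and Igfbp1 differed by -0.0017, 0.011 and -0.013. They were in the low band, as were 7 of the 12 measured genes, which limits what their small differences can show. This list was chosen with earlier results of these data known, and its genes were named after their values were seen. Its counts beside the shares of all genes are therefore a description and not a test. The part of feeding state in the P450 values was not tested.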

How the data were processed

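Liver RNA from 6 mice was hybridised to Affymetrix arrays, 1 per mouse, per the labels. The authors deposited log2 values for each probe set, which the submitters' processing notes credit to RMA; neither its version nor a genome build is stated there. Probe sets with 1 symbol in the platform annotation (21218 of 28996) were used, and the one with the highest mean stood for its gene.

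Groups were compared in limma 3.58.1 under R 4.3.3 (lmFit, eBayes, two-sided, without covariates), p-values were adjusted by Benjamini-Hochberg for 18820 genes, and the threshold was 0.05. For members described in full, all 15 splits of the arrays gave an exact permutation p, two-sided. Intervals are limma's at 95%. Tables and figures used Python 3.11.15 with matplotlib 3.10.9, pandas 2.3.3 and numpy 2.4.6. The fit was checked on simulated data. The p-values measure the spread between these mice.

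The members, gene lists and settings were chosen with earlier results of these data known. Members with a mean above 5 were described with every array, dimmer ones by range, with a fixed list of names and any with an unadjusted p under 0.01. Other names complete a subfamily. The alternatives changed the genes tested, the handling of several rows per gene, the scaling (quantile, median, or the low band subtracted with a floor of 1 for genes above 4.6), limma's prior and weights, the replicate block and the arrays included.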

Additional observations from a re-analysis of the deposited data

Results flagged for a closer look

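Over the 4 Pcyt2+/- arrays, 59 genes were examined (the 41 members, Pcyt2 and the other 17 named), and 1 had an array far from the rest. Hsd3b5 read 5.28 in Pcyt2+/- replicate 1 and 5.11 to 5.13 in the other 3, and this gap was 0.834 of the whole range, above Dixon's 95% critical value for 4 samples. Chance gives such a gap in about 1 of 20 groups.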

How the results depend on the processing

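The 2 wild type arrays limit every value, and most members lie where the array compresses differences. No member passed under any of the 16 alternatives run. The lowest adjusted p was 0.17 (limma, Cyp2f2 with the replicate block). The median difference over members shifted by less than the SD between single arrays of the centred member median. The count of all genes passing limma, 0 with all arrays, was 3 with only genes above 5, 3 with the low band subtracted, 9 with a trended and robust prior and 2 with the replicate block, and it ran from 0 to 9 with each array left out (9 without wild type replicate 3). Cyp4a14 was among the genes that passed with only genes above 5, with the low band subtracted and with the trended and robust prior. It also passed without Pcyt2+/- replicate 3, and Tat passed with the trended and robust prior. Genotypes share only numbers 3 and 4 and the labels state no pairs, so the numbers were not taken as pairs in the main fit. Deviations of same-numbered arrays from their group mean correlated at 0.113 and 0.153 over genes above 5. With 2 wild type arrays these deviations mirror each other, so the correlations cannot tell whether the mice were paired. In the replicate block, Pcyt2+/- replicates 1 and 2 have no wild type array of their number. Differences there rest on numbers 3 and 4 alone, 2 arrays against 2. This block turned Cyp2a12 to 0.0156, Cyp2d13 to -0.00342, Cyp2d22 to -0.0249, Cyp3a11 to 0.0498 and Cyp2r1 to -0.00928. Quantile normalization turned Cyp2a12 to 0.0352, Cyp2d9 to 0.0522, Cyp2b9 to -0.00167 and Ahr to 0.0026. Array weights turned Ahr to 0.000915, and the mean of its rows turned Cyp1b1 to 0.00793. With each array left out, the sign turned for Cyp2a12 (-0.15 to 0.141), Cyp2d22 (-0.0996 to 0.123), Cyp2d26 (-0.128 to 0.00293), Cyp2d9 (-0.0288 to 0.0217), Cyp2j5 (-0.14 to 0.0107), Cyp3a11 (-0.109 to 0.0355), Cyp1a1 (-0.0119 to 0.00309), Cyp1b1 (-0.0174 to 0.00114), Cyp2b9 (-0.011 to 0.0125), Cyp2b10 (-0.0244 to 0.0205), Cyp2b13 (-0.000977 to 0.0176), Cyp2r1 (-0.0083 to 0.00863) and Cyp3a16 (-0.0134 to 0.0383). It also turned for Ahr (-0.0286 to 0.0261), Rxra (-0.103 to 0.00977), Hnf4a (-0.533 to 0.0381), Cyb5a (-0.178 to 0.0151), Alas1 (-0.376 to 0.0239), Ces2a (-0.0129 to 0.0271), Gstm1 (-0.0378 to 0.237) and Elovl3 (-0.808 to 0.0884). The cause of these turns was not tested. The sign held for 6 of 13 brighter members, 4 of 11 dimmer named ones and 9 of 17 other named genes. Fits with 1 wild type array take its spread to be that of the Pcyt2+/- group. Members below 4.6 have no value with the low band subtracted.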
